A study of Mus musculus with 20 samples.

Results

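Large Polycomb domains of fetal hematopoietic stem cells (HSCs) were defined as stretches of the mouse genome in which neighbouring fetal H3K27me3 peaks on chromosomes 1 to 19 lay at most 5000 bp apart and, once merged, spanned at least 10000 bp. The rule gave 1010 large domains among 7892 merged fetal domains of any span, or 12.8% of them. They were selected on the fetal H3K27me3 list alone, so their fetal spans and fetal H3K27me3 length are a description and support nothing. The other 7 peak lists were not used to choose them.

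H3K27me3, the trimethylation of lysine 27 of histone H3, is laid down by Polycomb repressive complex 2 and marks genes held silent, among them many regulators of development. The mark can spread over long stretches around CpG-rich promoters. H3K4me3 marks active or poised promoters, and a promoter that carries both H3K4me3 and H3K27me3 is called bivalent. H3K27ac marks active promoters and enhancers, and H3K4me1 marks enhancers and the flanks of promoters.

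The study profiled these 4 marks by chromatin immunoprecipitation and sequencing in HSCs of B6129SF1 mice, a hybrid strain. Fetal HSCs came from liver at embryonic day 14.5, and adult HSCs came from bone marrow of mice aged 6 to 8 weeks. At both stages the cells were sorted as Lin-, Sca1+, cKit+ and CD135-, a gate that also admits multipotent progenitors, and each ChIP used 50000 cells. No genetic change or treatment is given for any group. The labels list 20 samples in 10 groups of 2 replicates, with an input group at each stage. The files give 1 combined peak list per mark and stage, 8 in all, so no value below has a replicate error and no test between stages could be made. A difference between fetal and adult HSCs cannot be told apart from a difference in the sequencing depth, antibody pull-down or peak calling of the lists. On the autosomes the fetal H3K27me3 list held 14579 peaks over 37.8 Mb with a median width of 1408 bp, and the adult list held 22831 peaks over 9.31 Mb with a median width of 280 bp. Read depth is unknown. Intervals in parentheses are exact 95% Clopper-Pearson intervals over domains or islands and cover counting error only, and neighbouring regions are not independent. No gene or cell type marker positions of the same build were used, so domains are named by their mm9 position and the sorted identity of the cells was not checked here.

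The large domains spanned 22.5 Mb, and the fetal peaks in them made up 47.6% of all autosomal fetal H3K27me3 length. The median span was 16752 bp, with a range from 10007 to 155219 bp. Of the 1010 domains, 621 spanned 10 to 20 kb, 333 spanned 20 to 50 kb and 56 spanned 50 kb or more. A domain was built from a median of 4 fetal peaks, with a range of 1 to 38, and 69 domains were a single peak. Fetal peaks occupied 79.8% of the summed span. At the threshold, the narrowest member was chr7:31126547-31136553, of 10007 bp, and the widest merged domain left out was chr1:160283562-160293560, of 9999 bp.

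Most large fetal domains held H3K27me3 in adult HSCs as well, but as short pieces over a minor part of their length. At least 1 adult H3K27me3 peak lay in 916 of the 1010 domains, or 90.7% (88.7 to 92.4), against a background of 51.1% of merged fetal domains of any span. The share was 5.16% in domains of under 1000 bp, 20.8% at 1000 to 2000 bp, 59.1% at 2000 to 5000 bp and 82.2% at 5000 to 10000 bp, and a longer domain offers more length in which a peak can fall. The median large domain held 8 adult pieces, and the most was 128. Together the domains held 11819 adult pieces of 5.48 Mb, which is 51.8% of the adult autosomal peaks and 58.9% of their length. Of the adult length in the domains, 99.4% lay inside fetal peaks and not in the gaps between them.

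Adult cover, the part of a domain's fetal H3K27me3 length that was also under adult H3K27me3 peaks, was 30.3% over all large domains combined. It was 1.57%, 4.91%, 14.98% and 24.1% in the 4 classes of smaller domains, from the narrowest to the widest. Within the large domains it was 27.7% at 10 to 20 kb, 32.9% at 20 to 50 kb and 29.5% at 50 kb or more, so it no longer followed span. The domains themselves differed widely. Adult cover was 0 in 94 domains, under 10% in 138 others, 10 to 25% in 282, 25 to 50% in 365, 50 to 75% in 122 and 75% or more in 9.

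Adult cover was higher where the fetal domain was more continuous. In the 337 domains with the lowest share of span under fetal peaks, from 24.98 to 72.6%, adult cover was 15.3%, and 78 held no adult piece. In the next 337, up to 90.2%, it was 27.6% with 13 lacking a piece. In the 336 most continuous domains it was 42.8%, and 3 lacked a piece. The 69 domains that were a single fetal peak reached 50.8%, and every one of them held adult H3K27me3. Across the 1010 domains, adult cover followed the share of span under fetal peaks with a Pearson r of 0.60 and a Spearman rho of 0.61, and log10 span with an r of 0.12 and a rho of 0.14. These are descriptions over regions that share the same 2 lists, and the fetal peaks enter both measures.

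**Figure D1:**
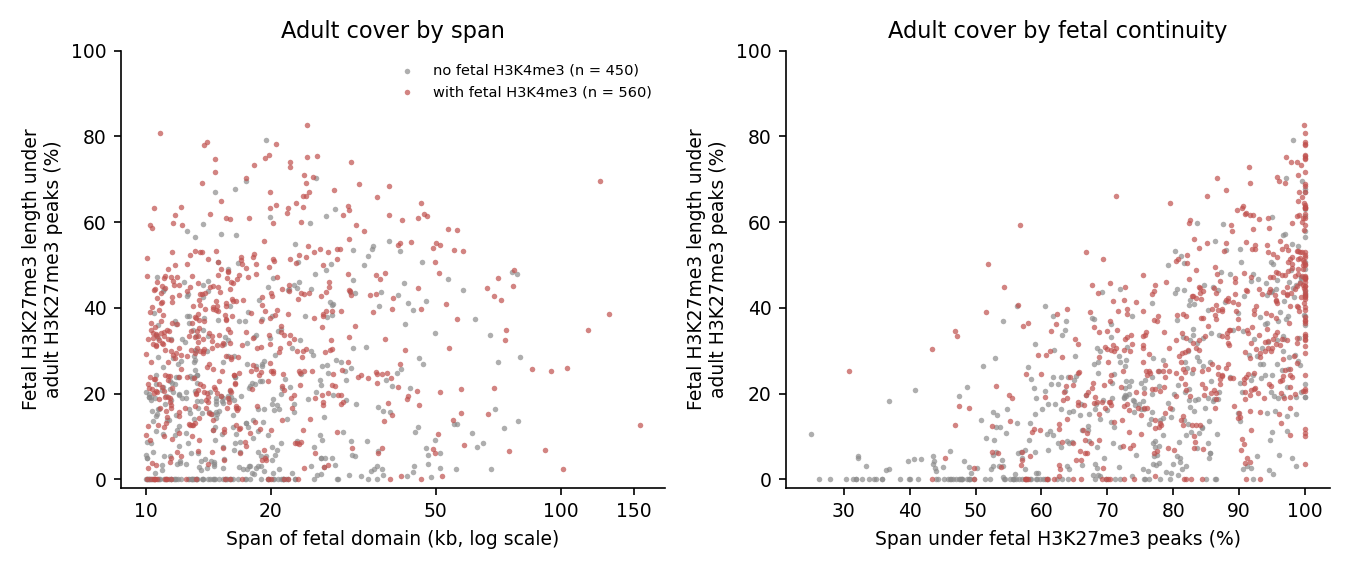
Adult cover (percent of a domain's fetal H3K27me3 length under adult H3K27me3 peaks) of each of the 1010 large domains, against its span on a log axis (left) and against the percent of its span under fetal peaks (right). Each point is 1 domain, red where it holds fetal H3K4me3 (560) and grey where it does not (450); cover varies from 0 to above 80% at short spans and is mostly low where fetal peaks fill little of the span.

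Adult pieces were narrow and closely spaced. Their median width was 310 bp, with quartiles of 208 and 533 bp, against 251 bp for the 11012 adult peaks elsewhere. Neighbouring pieces in a domain were separated by a median of 191 bp. The longest stretch without an adult piece took a median of 37.7% of a domain's span. When adult peaks were merged by the same rule as the fetal ones, 379 adult domains reached 10000 bp, with a median span of 15559 bp and a summed span of 7.48 Mb. Of these, 364 met a large fetal domain, whereas 350 of the 1010 large fetal domains met a large adult one. After that merging, 631 large fetal domains held 1 adult domain of any span and 285 held 2 or more.

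The widest domain, chr15:7068111-7223329, spanned 155219 bp and held 38 fetal H3K27me3 peaks. It held 66 adult pieces, none wider than 776 bp, and its adult cover was 12.5%. The second, chr19:44712237-44843017, had 95 adult pieces and 38.5% cover. The third, chr2:74482815-74607323, of 124509 bp, held 128 adult pieces and 83398 bp of adult H3K27me3, with 69.6% cover, the highest of the 10 widest. It also held 4 fetal H3K4me3 islands, at 27831, 52936, 60101 and 117734 bp from its start, and 24 fetal H3K4me1 peaks. Adult H3K4me3 lay at the first and the third of these islands, and the other 2 lay under 521 of 521 bp and 998 of 998 bp of adult H3K27me3.

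The sixth widest, chr17:36274869-36376167, of 101299 bp, stood at the other end of the 10 with 6 adult pieces and 2.41% cover. Its 32 fetal peaks filled 62.9% of its span, and it held 4 fetal and 6 adult H3K4me3 islands. The eighth, chr14:25007246-25098642, had 21 adult pieces and 6.75% cover. Cover in the remaining 5 of the 10 lay between 25.2% (chr4:115560710-115655133) and 34.9% (chr7:86631501-86747846), with chr11:61345894-61449412 at 26.1%, chr2:164986751-165072128 at 25.8% and chr15:102880638-102960437 at 28.4%. The last was the only one of the 10 with no H3K4me3 island at either stage. That domain begins right after a stretch of 149036 bp with no fetal H3K27me3 peak, described under other observations. The stretch held 3 H3K4me3 islands at each stage.

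Among domains of at least 20 kb, the highest adult cover was 82.7%, at chr19:45295832-45320250. This domain of 24419 bp was 99.8% under fetal peaks, and it held 20 adult pieces and 13 fetal H3K4me1 peaks. The next were chr2:73099624-73120261 at 78.2% and chr12:74133327-74159184 at 75.5%, both a single fetal peak. The lowest cover above 0 was 0.589% at chr14:12534821-12583433, where 15 fetal peaks filled 54.1% of 48613 bp and none of the 6 lists of the other 3 marks had a peak. It was 0.690% at chr11:70510249-70551456 and at chr1:91179671-91212729, each with 1 adult piece. The widest domains without any adult piece were chr8:10897467-10943571 (46105 bp), chr3:108513711-108552573 (38863 bp) and chr13:93695487-93731568 (36082 bp). The first of these 3 held H3K4me3 and H3K27ac at both stages, the second held H3K4me3 at both and H3K27ac in adult only, and the third held neither mark.

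**Figure D2:**
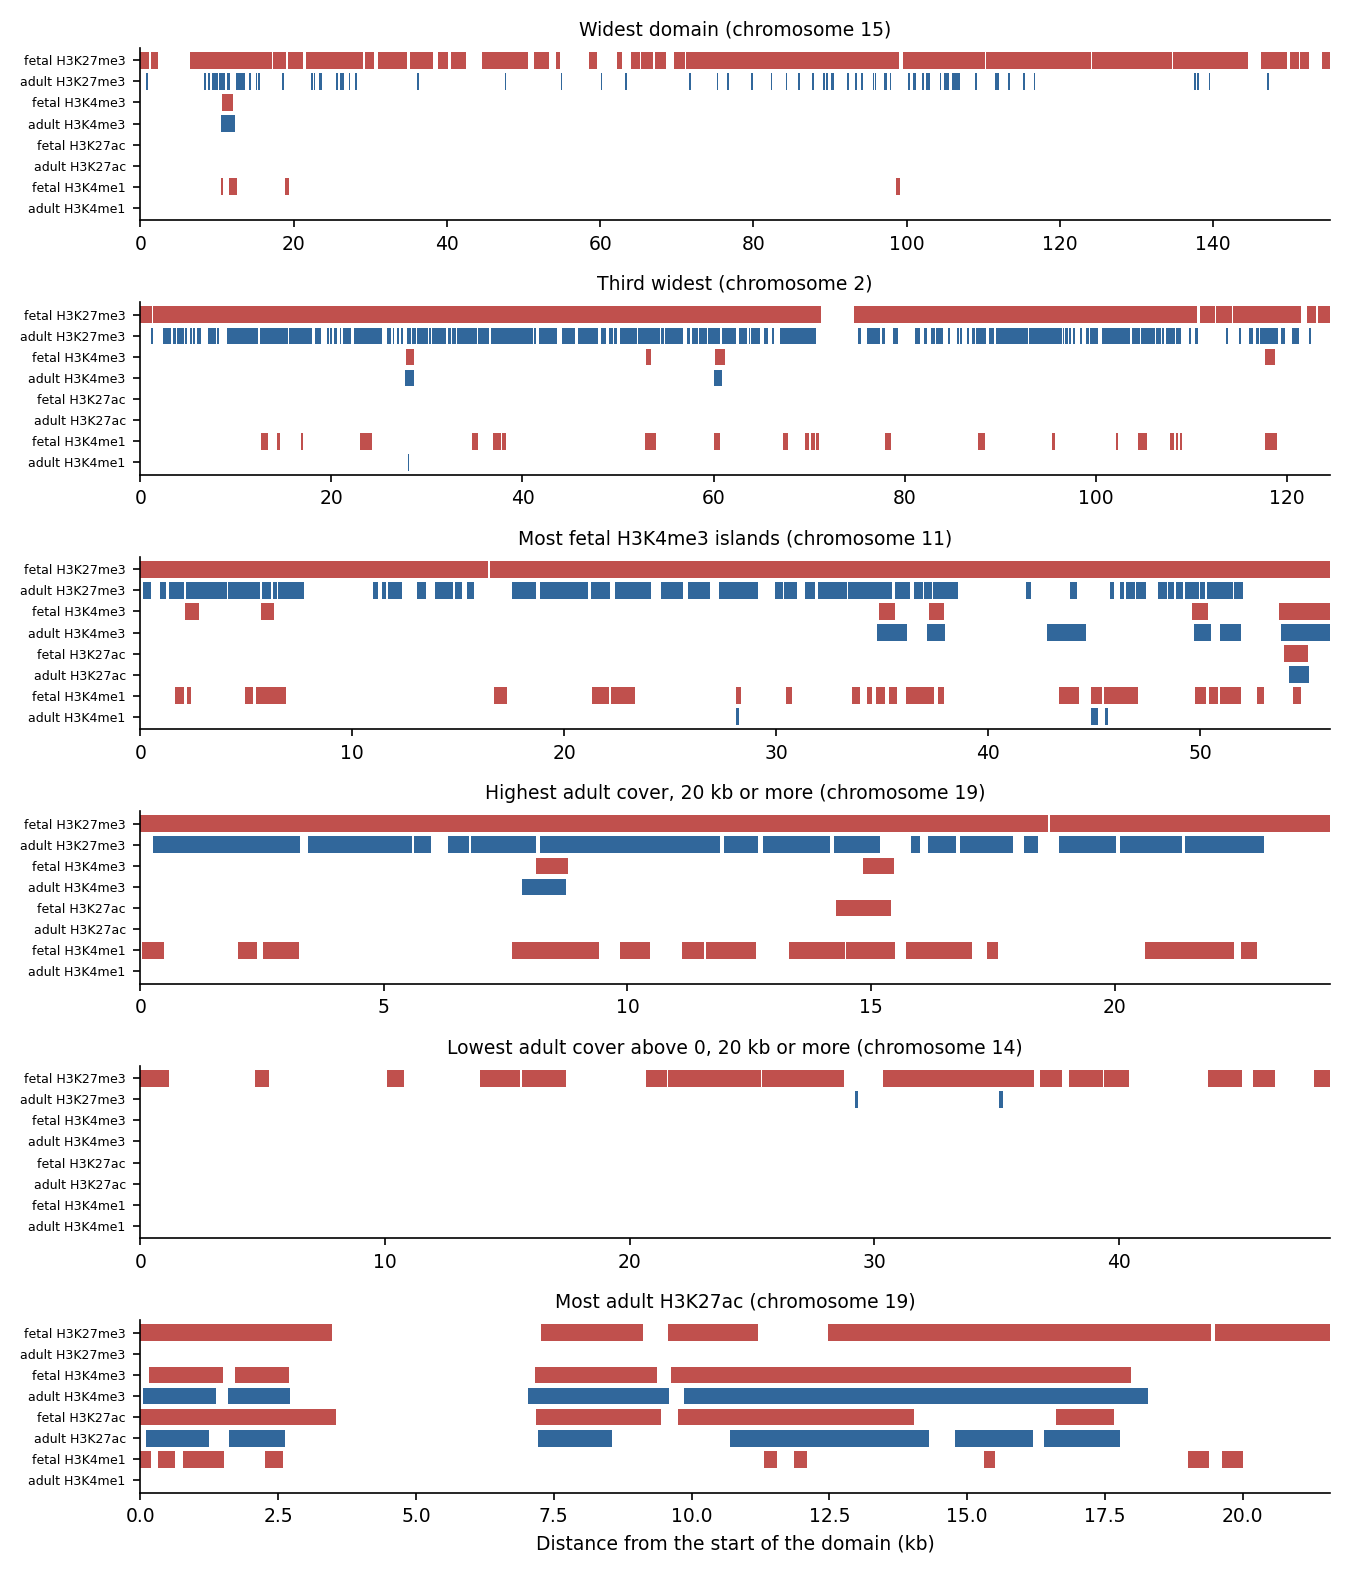
Peaks of the 8 lists in 6 named domains, as distance in kb from the start of the domain; red blocks are fetal and blue blocks adult, and the scale differs between panels. Fetal H3K27me3 forms long blocks, and adult H3K27me3 forms short pieces that fill 69.6% of the fetal length in the domain on chromosome 2, 12.5% in the widest domain and 0.589% in the domain on chromosome 14.

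H3K4me3 islands, the peaks of that mark that share at least 1 bp with a domain, occurred in 560 large domains in fetal HSCs, or 55.4% (52.3 to 58.5), against a background of 42.1% of merged fetal domains of any span. In adult HSCs they occurred in 538, or 53.3% (50.1 to 56.4), against 39.3%. A longer domain has more room for a peak, and per length H3K4me3 was sparser in large domains than in any smaller class. Fetal islands took up 4.48% of their span, at 3.67 per 100 kb, against 11.5 to 21.4% of the span and at least 8.93 per 100 kb in the smaller classes. Both stages had H3K4me3 in 500 domains, the fetal list alone in 60, the adult list alone in 38 and neither in 412. For this split by stage, no background over merged fetal domains of any span is given, so the counts are a description only. Most domains with fetal H3K4me3 had a single island, 373 of 560. Another 128 had 2 and 59 had 3 or more. There were 826 fetal and 740 adult islands, and the adult ones took up 4.50% of the summed span.

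These islands were narrower than H3K4me3 peaks elsewhere. The median width of the fetal islands was 1122.5 bp, against 1371 bp in smaller merged domains and 1889 bp outside them. In adult HSCs the medians were 1254, 1501.5 and 1912 bp. Of the fetal islands, 92.5% lay wholly inside their domain, so the domain extended past them on both sides. Overlap with a fetal H3K27me3 peak, at 820 of 826 islands and at 2927 of 2932 in smaller domains, was nearly fixed by the choice of domains and is no finding. Fetal H3K27ac lay on 16.6% (14.1 to 19.3) of fetal islands in large domains, 35.3% (33.6 to 37.1) in smaller domains and 87.2% (86.6 to 87.8) outside.

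A fetal island in a large domain had an adult H3K4me3 peak in 656 of 826 cases, or 79.4% (76.5 to 82.1). The share was 87.3% (86.1 to 88.5) in smaller domains and 92.4% (91.9 to 92.9) outside. By adult state, 523 islands carried both adult H3K4me3 and adult H3K27me3, 133 carried adult H3K4me3 only, 154 adult H3K27me3 only and 16 neither. Wide islands were found again more often. Adult H3K4me3 was present on 59.6% (54.0 to 65.1) of the 317 islands of 500 to 1000 bp, 91.2% (88.1 to 93.8) of the 411 of 1000 to 2000 bp and 96.8% (90.9 to 99.3) of the 93 of 2000 bp or more. The 154 with adult H3K27me3 only had a median fetal width of 787.5 bp, against 1230 bp for those with both adult marks. In the other direction, 93 of the 740 adult islands had no fetal island. Adult H3K27me3 lay on 74 of these 93, or 79.6%, near the 80.8% of all 740. Adult H3K27ac lay on 7 of the 93, or 7.53%, beside 25.7% of all 740.

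**Figure D3:**
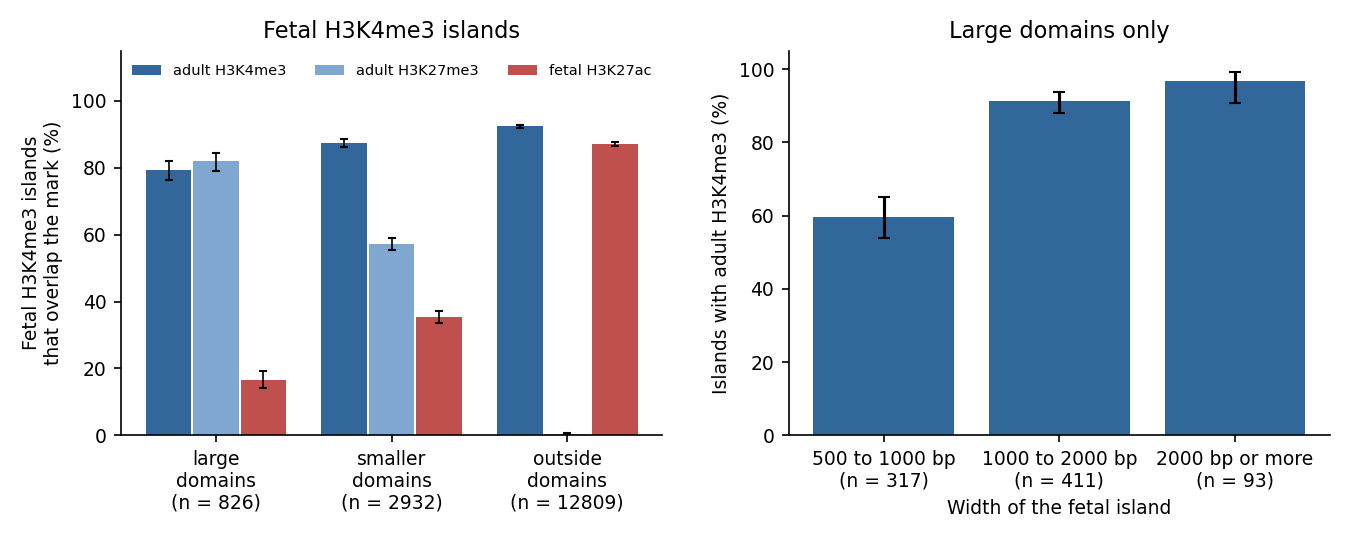
Left, percent of fetal H3K4me3 islands that overlap adult H3K4me3, adult H3K27me3 or fetal H3K27ac, in large domains (826), in smaller merged domains (2932) and outside them (12809). Right, percent of the islands in large domains with adult H3K4me3, by width of the fetal island, which goes from 59.6 to 96.8%; bars are shares, and error bars are exact 95% intervals for counting error.

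The domains with most fetal H3K4me3 islands were chr11:96110603-96166715 with 6, and chr13:23376597-23411924 and chr16:17795238-17822863 with 5 each. The domain on chromosome 11, of 56113 bp and 58.1% adult cover, had 6 adult islands too, but not all at the same places. The fetal islands at 2081 and 5700 bp from its start had no adult H3K4me3. The adult islands at 42759 and 50922 bp had no fetal one. Its widest fetal island, of 2432 bp, lay across its right end, carried H3K27ac at both stages and shared no bp with adult H3K27me3. Its other 5 fetal islands, of 617 to 778 bp, were each largely under adult H3K27me3, from 602 of 778 bp to 674 of 717 bp. The domain on chromosome 13 had 1 adult island and 39.1% cover, and the one on chromosome 16 had 3 and 44.8%.

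H3K27ac was uncommon in the large domains. Fetal H3K27ac occurred in 144 domains, or 14.3% (12.2 to 16.6), beside a background of 14.5%, and adult H3K27ac in 169, or 16.7% (14.5 to 19.2), beside 18.2%. These shares are near the background, although the large domains are the longest. Per length the mark was sparser in them than in any smaller class, with 0.768 fetal islands per 100 kb against 2.41 to 12.4, and 0.901 adult islands against 3.01 to 14.8. Both stages had it in 96 domains, the fetal list alone in 48, the adult list alone in 73 and neither in 793. No background is given for this split by stage either. Of the islands, 76.9% of the 173 fetal and 93.6% of the 203 adult ones lay at H3K4me3 of the same stage. The 3 domains with most adult H3K27ac, chr19:43673591-43695170 with 9884 bp, chr6:88139748-88150216 with 7684 bp and chr19:23207804-23218439 with 6263 bp, held H3K4me3 and H3K27ac at both stages and no adult H3K27me3.

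H3K4me1 differed most between the lists. It occurred in 822 large domains in fetal HSCs, or 81.4% (78.8 to 83.7), against a background of 50.1%, and in 258 in adult HSCs, or 25.5% (22.9 to 28.4), against 7.39%. Per length, fetal H3K4me1 was sparser in large domains than in any smaller class, at 14.5 pieces per 100 kb against 22.1 to 35.4, and 8.11% of the span against 8.83 to 16.4%. Adult H3K4me1 was at 1.67 pieces per 100 kb, within the 1.52 to 1.89 of the smaller classes. The domains held 3277 fetal and 377 adult pieces, with median widths of 428 and 181 bp. The whole lists differ in the same direction, with 92339 fetal and 12502 adult autosomal peaks. When both H3K4me1 lists were limited to the same number of top-scoring peaks, the fetal share was 25.7%, close to the adult one.

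**Figure D4:**
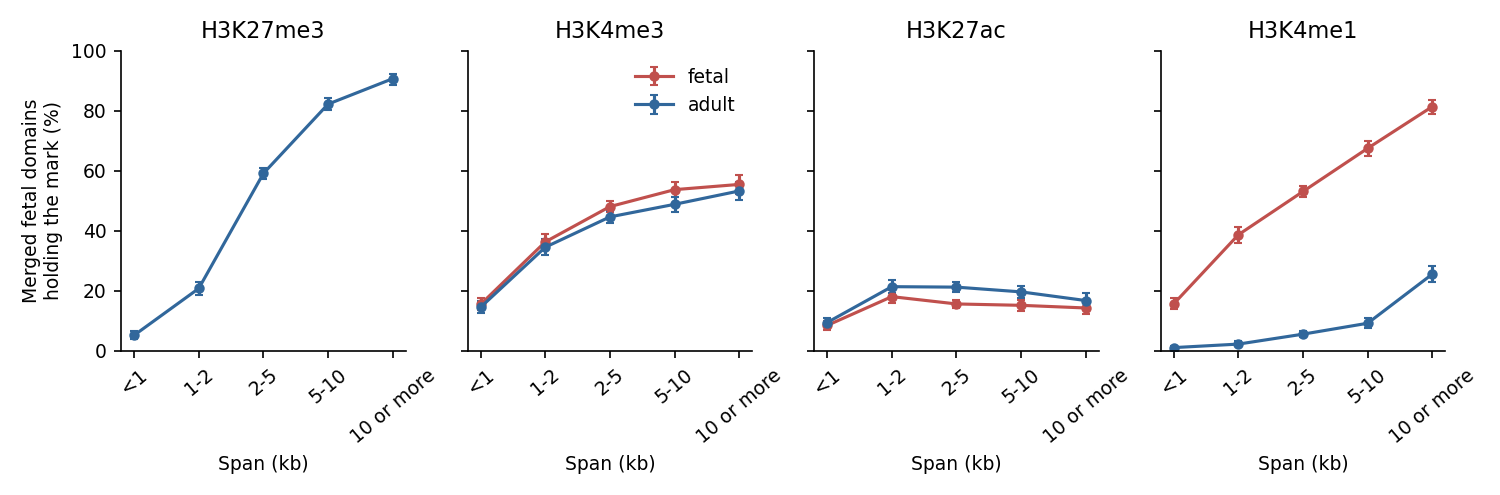
Percent of merged fetal domains that hold at least 1 peak of each mark, by domain span in kb, with fetal lists in red, adult lists in blue and exact 95% intervals for counting error. Adult H3K27me3 goes from 5.16 to 90.7% and fetal H3K4me1 reaches 81.4%, while H3K27ac stays at or below 21.4% in every class.

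Adult H3K27me3 filled more of the domains that held fetal H3K4me3. Adult cover was 35.4% in the 560 domains with fetal H3K4me3 and 22.9% in the 450 without. An adult piece was present in 95.9% (93.9 to 97.4) and 84.2% (80.5 to 87.5) of them. Cover was 31.9% with 1 island and 41.2% with 2 or more. The order was the same in each span class, at 32.6 against 20.7% for 10 to 20 kb, 39.2 against 24.8% for 20 to 50 kb and 32.8 against 22.5% for 50 kb or more. Domains with fetal H3K4me3 were also the more continuous ones, and the order held at each level of continuity, at 19.6 against 11.8% in the least continuous, 30.8 against 23.0% in the middle and 46.0 against 35.4% in the most continuous domains. In the 176 domains with none of the 3 other marks in the fetal lists, cover was 11.9%, and in the 257 with fetal H3K4me1 alone it was 28.6%. By H3K27ac, cover was 29.5% in the 96 domains with it at both stages and 31.7% in the 48 with it in fetal only. It was 22.6% in the 73 with H3K27ac in adult only and 31.0% in the 793 with it at neither stage.

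Within the domains with fetal H3K4me3, adult H3K27me3 was densest around the islands, although most adult pieces lay over 1000 bp away. In the 560 domains with fetal H3K4me3, adult peaks occupied 51.7% of the length inside the islands, 51.5% of the length up to 1000 bp from them, 28.6% between 1000 and 5000 bp and 21.5% beyond 5000 bp. Fetal peaks occupied 92.8, 95.4, 84.1 and 78.6% of the same 4 zones. In finer steps the adult value was highest in the first 0.5 kb outside an island, at 56.1%, and lowest beyond 20 kb, at 16.4%, a zone found in 82 domains. The 450 domains without fetal H3K4me3 had 17.3%, with 74.9% under fetal peaks. In single domains the zone within 1000 bp had the higher adult share in 399 of the 463 domains that held adult H3K27me3 and at least 500 bp of each zone, the zone beyond 5000 bp in 59, and they were equal in 5. Of the 7727 adult pieces in these 560 domains, 17.4% overlapped an island and 15.3% lay up to 1000 bp away. Another 30.6% lay at 1000 to 5000 bp and 36.8% beyond 5000 bp. By length, 32.2 and 34.1% of adult H3K27me3 lay in these outer zones, beside 33.7 and 44.4% of fetal H3K27me3. Pieces that overlapped a fetal island were also wider, with a median of 488 bp, against 352, 302 and 290 bp in the next 3 zones. A wider piece is more likely to touch an island, so this order of widths is partly built in.

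This order was not the same under every selection of peaks. With only the better-scoring peaks of every list, down to its median score, the domains were built anew under the rule. This gave 736 domains, of which 4.62% held fetal H3K4me3. Fetal islands in the large domains had a median score of 217, against 1703 in the whole autosomal list, so most were removed. In the few newly built domains with an island, adult shares were 17.4% inside, 32.2% up to 1000 bp and 38.2% beyond 5000 bp, the reverse order. With equal numbers of top-scoring peaks at both stages the order held, at 48.4, 47.4, 25.2 and 19.2% in the 4 zones. A check added after the data were seen left out the outer 20% at each end of every domain. The values were then 56.5, 57.8, 33.4 and 26.98%. The zone up to 1000 bp was thus slightly above the islands, unlike over whole domains, and the values fell outward from there.

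Among domains with fetal H3K4me3, those with H3K27ac anywhere in the domain, on an island or not, differed in level from those without it. In the 365 domains with fetal H3K4me3 and no H3K27ac at either stage, adult H3K27me3 occupied 63.1% inside islands and 23.5% beyond 5000 bp. In the 195 with H3K27ac at 1 or both stages it occupied 37.8 and 17.1%. In the 66 domains where no fetal island had adult H3K4me3, adult H3K27me3 occupied 72.2% of the island length, against 47.4% in the 421 where every island did.

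Adult H3K27me3 also lay on fetal H3K4me1. In the 822 domains with fetal H3K4me1, adult peaks occupied 63.8% of the H3K4me1 length and 23.3% of the rest of the domain. The values were 66.0 and 25.2% in the 548 of them with fetal H3K4me3, and 55.0 and 19.9% in the 274 without. In single domains with adult H3K27me3 the share was higher on H3K4me1 in 664 of 761. Fetal H3K27me3 peaks occupied 92.7% of the fetal H3K4me1 length, beside 79.8% of the summed span of all large domains. Of the fetal H3K4me1 peaks, 49.1% lay within 1000 bp of fetal H3K4me3, so this result and the one around H3K4me3 are not separate. H3K4me1 covers little of a domain, and 23.2% (22.5 to 24.0) of the 11819 adult pieces overlapped it. Of the 9292 pieces over 1000 bp from fetal H3K4me3, 14.1% did.

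Along the domain, adult H3K27me3 was sparse at the ends and fuller in the middle. With each domain divided into 10 equal parts, adult peaks occupied 10.03 and 10.9% of the first and last parts and 31.5% of the middle 2 parts. Fetal H3K27me3 was even, at 80.9% of the outer and 81.2% of the middle 2 parts, and a merged domain begins and ends on a fetal peak by construction. Fetal H3K4me1 was at 4.84 and 10.1%, and fetal H3K4me3 at 3.48 and 5.31%. Domains without fetal H3K4me3 had the same form, with 6.05% adult H3K27me3 in the outer and 23.9% in the middle 2 parts, and those with it had 13.8 and 37.4%.

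**Figure D5:**
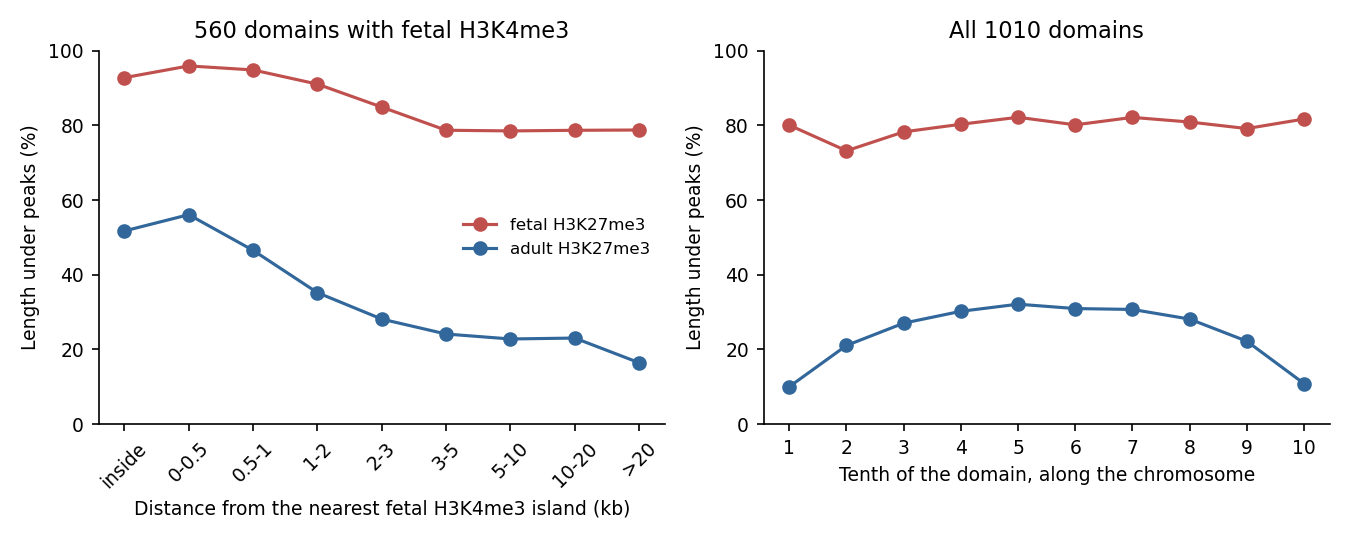
Percent of length under fetal (red) and adult (blue) H3K27me3 peaks by distance in kb from the nearest fetal H3K4me3 island in 560 domains (left), and by position in 10 equal parts along all 1010 domains (right). The adult line goes from 56.1% next to the islands to 16.4% beyond 20 kb, and from 31.5% in the middle of domains to 10.03 and 10.9% at their ends, while the fetal line stays above 70%.

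The large domains lay on all 19 autosomes, from 13 on chromosome 16 to 99 each on chromosomes 2 and 4. Adult cover per chromosome ranged from 21.1% on chromosome 17 to 37.9% on chromosome 16. Of the 1010 domains, 284 had another large domain within 50 kb and formed 118 groups. The largest group, chr8:123399445-123842725, held 9 domains whose adult cover ran from 0 to 79.1%. In the next 2 groups by number of domains, of 6 and 5, it ran from 0 to 43.3% and from 1.43 to 24.9%.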

How the data were processed

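Peak lists were the deposited files, 1 combined list per mark and stage. Per the submitters' processing notes, Bowtie2 2.2.2 and the mm9 genome build were used, and the peak names in the files begin with MACS, a peak caller. The caller's version, settings and control are not given in the sources used here. The score of each peak is the authors' own value, of at least 50 in every deposited list and with no stated unit, and it was used only to rank peaks within a list. Inputs, replicates and read counts were not analysed here.

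Coordinates are 1-based mm9. Intervals were merged, intersected and counted in Python 3.11.15 with numpy 2.4.6, pandas 2.3.3, scipy 1.17.1 and matplotlib 3.10.9. An overlap was 1 bp or more. Domain zones were measured from the nearest fetal H3K4me3 peak. The interval code was tested on simulated lists of 131 domains, where 0 values differed from a count of single bases. No gene table or genome of the same build was used, so no gene names, annotations or sequences are given. Regions named were the 10 widest domains, the 3 widest without adult H3K27me3, the 3 with highest and the 3 with lowest adult cover above 0 among those of 20 kb or more, the 3 with most fetal H3K4me3 islands, the 3 with most adult H3K27ac and the 2 at the threshold. Members, lists and rules were chosen with earlier results of these data known. Other merge distances, thresholds, peak selections and overlap rules were tried, 10 in all, and 1 more was added after the data were seen.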

Additional observations from a re-analysis of the deposited data

Results flagged for a closer look

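H3K27me3 peaks outside chromosomes 1 to 19 entered none of the main values and are given here for that reason. In 1 of the alternatives chromosomes X and Y were added, which gave 1018 large domains and an adult cover of 30.2%. Under the same rule, chromosome X held 8 large fetal domains of 11010 to 29797 bp from 244 fetal peaks. Adult H3K27me3 lay in 7 of the 8 and covered 10.95% of their fetal H3K27me3 length, beside 30.3% on the autosomes. The fetal list also had 20 peaks on unplaced contigs, where 1 domain of 61320 bp met the rule and had an adult cover of 25.3%. The reason for the lower cover on chromosome X was not tested.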

How the results depend on the processing

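Each of 17 values was recomputed under the alternatives that bear on it, 128 values in all, of which 96 stayed within 1.5 times the main value or, for shares, within its counting interval. No paired analysis was possible because each mark and stage has 1 combined list, so leaving out a replicate was not possible either. Depth is unknown, and so is the weakest enrichment that either list could show.

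With a merge distance of 1000 bp the shares of domains with adult H3K27me3, fetal H3K27ac, adult H3K27ac and fetal H3K4me1 were 96.8, 10.1, 13.6 and 83.8%, and adult H3K27me3 occupied 34.9% beyond 5000 bp. With 10000 bp they were 85.8, 18.2 and 20.9% for the first 3. A span threshold of 20000 bp left 389 domains with a median span of 28940 bp and 16 adult pieces, of which 94.6% held adult H3K27me3, 87.4% fetal and 32.1% adult H3K4me1, and 73.7% of fetal H3K4me3 islands had adult H3K4me3. With the better-scoring peaks only, 4.62 and 5.43% of domains held fetal and adult H3K4me3, 4.89 and 4.35% H3K27ac, and 72.0 and 13.7% H3K4me1. In the 4.62% with fetal H3K4me3, adult coverage was then 17.4% inside islands, 32.2% within 1000 bp and 38.2% beyond 5000 bp. The difference of the last 2 zones thus went from 30.0 to -5.98 percentage points. The cause was not tested. Merging adult pieces within 1000 bp gave a median of 2 per domain. Requiring 500 bp of a mark gave 85.0% for adult H3K27me3, 71.1% for fetal and 2.87% for adult H3K4me1. Equal numbers of top-scoring peaks gave 86.4% for adult H3K27me3, 9.50% for fetal H3K27ac and 25.7% for fetal H3K4me1.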

Other observations

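The widest adult H3K27me3 domain under the same merging rule, singled out after its values were seen, had almost no fetal H3K27me3 peak in the deposited list. It spanned 152486 bp at chr15:102726553-102879038 and held 193 adult pieces of 100177 bp, of which 880 bp, or 0.878%, lay under fetal peaks. Between positions 102731602 and 102880637 the fetal list had no H3K27me3 peak over 149036 bp, where the adult list had 188 pieces. The same stretch held 3 H3K4me3 islands at each stage and 20 fetal H3K4me1 peaks, and no H3K27ac or adult H3K4me1. Large fetal domains lay on both sides, a group of 6 that ended at 102731601 and the tenth widest domain, which began at 102880638. Whether a very wide fetal peak is missing from the list in this empty stretch was not tested, since no read coverage was analysed. The values are therefore no evidence that the mark was absent in fetal HSCs.

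Of the 379 adult domains of 10000 bp or more, 358 had at least 90% of their adult H3K27me3 length under fetal peaks and 3 had under 10%. Besides the domain above, these 3 included chr6:49161700-49177482, with 8757 bp of adult H3K27me3. Its fetal lists had 2 H3K4me3 islands, 1 H3K27ac island of 8095 bp and 7 H3K4me1 islands. Its adult lists had 1 H3K4me3 island of 1623 bp and 1 H3K27ac island of 892 bp. The last was chr4:85480268-85492513, with 1623 bp of adult H3K27me3 and no peak of the other 3 marks.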
